A study of Rhodotorula toruloides with 18 samples.

Results

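A group of 200 genes of the oil-storing yeast Rhodotorula toruloides was described here. In the wild type these genes were high without a carbon source and low on cellobiose and on succinate, and on cellobiose they were higher in a strain lacking the transcription factor gene cbr1. The genes were taken from the 7938 of 8484 genes whose mean reached 1 TPM over all libraries (TPM is an abundance corrected for transcript length and scaled to the same total in every library). Group means of log2(TPM + 1) had to be higher by at least 1 without carbon than on cellobiose and than on succinate in the wild type. On cellobiose they had to be higher by at least 1 in the deletion strain than in the wild type, and without carbon the deletion strain could exceed the wild type by less than 0.5. Of the 345 genes that met these terms, the 200 with the largest score were kept, the score being the smaller of the wild type difference between no carbon and cellobiose and the strain difference on cellobiose.

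The study grew strain IFO0880 in rich medium, washed the cells and moved them for 8 h to yeast nitrogen base with no carbon source, with 1% succinate or with 1% cellobiose, at 28 degrees C in constant light. Both strains had yku70 replaced by a hygromycin resistance marker, and the strain called wild type had only this change (genotype yku70::HygR). In the deletion strain cbr1 was also replaced, by a nourseothricin resistance marker (yku70::HygR cbr1::NatR). Poly-A enriched RNA was sequenced from 3 biological replicates of each of the 6 groups, 18 libraries in all. No library from the rich medium or from the moment of transfer was used here, so "high without carbon" is relative to the other 2 media, and a rise on starvation cannot be told apart from a fall on the carbon sources.

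Cellobiose is a disaccharide that fungi cleave to glucose with beta-glucosidases, and succinate is a dicarboxylic acid that enters the citric acid cycle directly. In fungi, a usable carbon source generally lowers the transcripts of genes for the use of poorer substrates and of internal reserves, a control known as carbon catabolite repression when a preferred carbon source causes it. When carbon runs out, yeasts generally raise genes for transporters, for recycling of cell material and for stored reserves. The files give identifiers without gene names, and none could be named from the reference, a list of 8171 genes of another strain, NP11 (0 of 8484 found). The 200 genes are therefore described by their levels, a few by identifier, and neither functions nor sequences are given. The transcript of cbr1 itself could not be looked up for the same reason.

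The 200 genes made up a sizeable part of the transcripts of starved cells. Without carbon they summed to 7.88%, 7.43% and 9.54% of all TPM in the 3 wild type libraries and to 7.70%, 8.30% and 10.8% in the 3 deletion libraries. On cellobiose the wild type libraries held 1.26%, 1.32% and 1.17%, and the deletion libraries 5.89%, 5.33% and 5.10%. The wild type libraries on cellobiose thus lay below all others of the series except wild type replicate 1 on succinate, which was within their range, and the deletion libraries on cellobiose lay between those of the wild type on cellobiose and all 6 libraries without carbon. These values follow from the choice of the genes and carry no test. TPM are shares of a library, so fewer transcripts of these genes and more RNA of other genes in a cell cannot be told apart.

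On succinate the sums were less even. The wild type libraries held 1.30%, 1.76% and 4.77%, and the deletion libraries 2.76%, 3.32% and 1.67%. The strains overlapped, because wild type replicate 3 was the highest of the 6 libraries and deletion replicate 3 was below wild type replicate 2. The deletion libraries on succinate were not used to choose the genes.

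**Figure D1:**
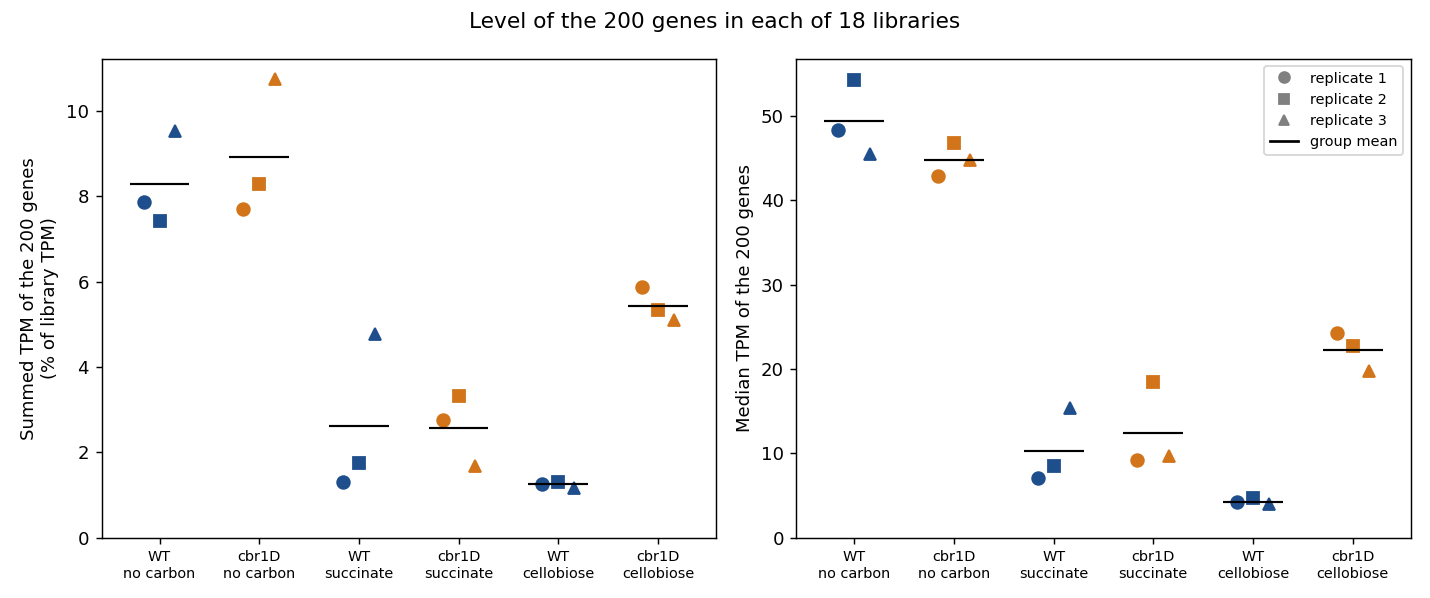
Summed TPM of the 200 genes as a percentage of the library (left) and their median TPM (right) in each of 18 libraries, with the group mean as a line; blue is wild type (WT) and orange the cbr1 deletion (cbr1D). The wild type on cellobiose has the lowest group mean in both panels, the deletion strain on cellobiose lies between 5.10% and 5.89% of TPM, and the succinate libraries of the strains overlap.

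The 10 genes most abundant in the starved wild type held 71.6% of this sum there and 79.5% of it when the deletion strain was on cellobiose. The same order of these groups was seen without them. The remaining 190 genes summed to 2.35% ± 0.16 (SD, n = 3) of TPM in the wild type without carbon, 0.292% ± 0.037 in the wild type on cellobiose and 1.11% ± 0.093 in the deletion strain there. The median of the 200 genes within a library was 49.3 ± 4.50 TPM (SD, n = 3) in the wild type without carbon, 4.30 ± 0.36 TPM in the wild type on cellobiose and 22.3 ± 2.25 TPM in the deletion strain there.

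Silencing in the sense of near absence applied to few of the genes. On cellobiose 17 of 200 were under 1 TPM in all 3 wild type libraries, 127 had a mean under 10 TPM there and 11 had a mean over 100 TPM. Without carbon 73 genes had a mean over 100 TPM in the wild type, with a range over all 200 from 2.71 to 34535 TPM.

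Replicate 3 of each strain on succinate stood apart from its group across all tested genes, and both libraries bear on every succinate result below. Deletion replicate 3 on succinate had r = 0.987 and 0.983 with wild type replicates 2 and 1 on succinate (Pearson, log2(TPM + 1), across 7938 genes), against 0.921 and 0.954 with its own group. Wild type replicate 3 on succinate had r = 0.913 and 0.938 with its own group, 0.949 with deletion replicate 2 on succinate and 0.931 with wild type replicate 3 without carbon. Wild type replicate 3 without carbon stood apart too, with r = 0.920 and 0.958 with its own group. Its median over all tested genes was 20.9 TPM, against 40.2 and 36.1 TPM in replicates 1 and 2. That library entered the choice of the genes through the wild type level without carbon. The strain label of deletion replicate 3 was compared with RTO4_13588, a gene outside the group. It was the 1 tested gene whose 9 wild type libraries were separated from the 8 other deletion libraries by at least 1 on the log2 scale, a limit set after its values were seen. It held 17.4 to 41.3 TPM in the wild type and 1.76 to 2.99 TPM in those deletion libraries, and deletion replicate 3 on succinate, not used to find it, held 1.75 TPM.

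The choice of genes is described first. In the wild type, the difference between no carbon and cellobiose had a median of 2.52 over the 200 genes on the log2 scale, with a range from 1.31 to 8.69, against a median of 0.13 over all tested genes. The 3 libraries without carbon all exceeded the 3 on cellobiose for 196 of 200 genes, and for 25.8% of all tested genes. The difference between no carbon and succinate had a median of 2.02 (0.59 over all tested genes). The 3 libraries did not overlap in that direction for 187 of 200 genes, and for 33.3% of all tested genes.

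On cellobiose, the deletion strain exceeded the wild type by a median of 1.76 on the log2 scale, with a range from 1.31 to 4.08 and a median of 0.22 over all tested genes. All 3 deletion libraries exceeded all 3 wild type libraries for 199 of 200 genes, and for 38% of all tested genes. For 159 of the 200 genes the strain difference on cellobiose was the smaller part of the score, so it was mostly this difference that set the rank. The genes at ranks 199 and 200 had scores of 1.31 and 1.31, and those just outside, at ranks 201 and 202, had 1.30 and 1.29. The score ran on without a gap down to 1.00 at the last of the 345 genes.

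The first gene by score was RTO4_13978. It held 34.0, 55.8 and 89.5 TPM in the wild type without carbon, 0.410, 0.673 and 0.453 TPM in the wild type on cellobiose, and 27.8, 11.7 and 44.4 TPM in the deletion strain on cellobiose. The deletion libraries on cellobiose were all far above the wild type ones and, in 2 of 3 libraries, below the lowest starved wild type library. On succinate the strains overlapped, with 3.70, 4.36 and 17.8 TPM in wild type libraries and 2.68, 10.02 and 9.64 TPM in deletion libraries.

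RTO4_9875 came next and was far more abundant. It held 2301, 2129 and 1333 TPM in the starved wild type, 53.6, 64.9 and 219 TPM in the wild type on cellobiose, and 1364, 1440 and 1475 TPM in the deletion strain on cellobiose. Its level in the deletion strain on cellobiose was within the range of the starved wild type. On succinate it held 66.5, 137 and 871 TPM in wild type libraries and 700.2, 661 and 68.4 TPM in deletion libraries. In each strain replicate 3 on succinate was the one that departed from the others, upward in the wild type and downward in the deletion strain.

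The gene most abundant in the starved wild type was RTO4_11385, with 29598, 24809.5 and 49199 TPM there and 28015, 31362 and 57573 TPM in the starved deletion strain. It held 3573, 3752 and 2851 TPM in the wild type on cellobiose and 19822, 19100 and 13879 TPM in the deletion strain. The deletion libraries on cellobiose thus lay between both sets of wild type libraries without overlap. RTO4_15265, the next most abundant, held 8073, 8019 and 5652 TPM in the starved wild type, 3060, 3077 and 2544 TPM in the wild type on cellobiose and 9755, 8912 and 6186 TPM in the deletion strain on cellobiose. Its score was the last to be kept, at rank 200, so abundance and score did not go together for this gene.

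How far the level of the deletion strain on cellobiose came toward that of the starved wild type differed widely among the genes. The strain difference on cellobiose was expressed as a share of the wild type difference between no carbon and cellobiose, both on the log2 scale. The share had a median of 73.0%, with quartiles of 52.9% and 96.4% and a range from 16.9% to 186%. It reached 100% or more for 41 genes. For 79 genes the deletion strain on cellobiose was lower than the starved wild type by at most 1 on the log2 scale, for 80 genes it was lower by more than 1, and for 31 of these by more than 2.

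**Figure D2:**
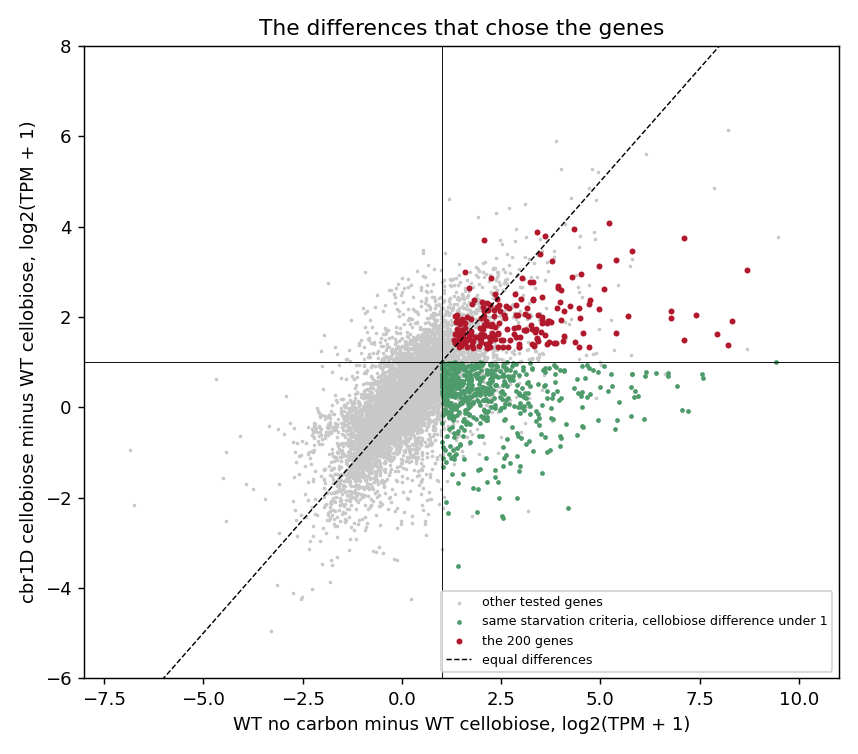
Difference between no carbon and cellobiose in the wild type (WT, x axis) against the difference between the cbr1 deletion (cbr1D) and the wild type on cellobiose (y axis), both in log2(TPM + 1), for 7938 genes. The 200 genes (red) start at 1.31 on both axes by the choice made, most lie below the line of equal differences, and the 567 genes in green met the other terms with a strain difference under 1.

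The 41 genes at or above the starved level had a median difference between no carbon and cellobiose of 1.53 in the wild type, with a range from 1.31 to 3.59. Their median strain difference on cellobiose was 1.90, with a range from 1.43 to 3.88. RTO4_10711 had the largest excess. It held 2473, 3199 and 1390 TPM in the starved wild type, 581, 826 and 314 TPM in the wild type on cellobiose, and 7445, 3786 and 11796 TPM in the deletion strain on cellobiose. All 3 deletion libraries on cellobiose were above every other library of this gene.

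RTO4_15588 had the next largest excess, at low levels. It held 9.52, 9.94 and 3.85 TPM in the starved wild type, 1.04, 1.48 and 2.92 TPM in the wild type on cellobiose and 21.6, 27.1 and 14.7 TPM in the deletion strain on cellobiose. Over all 200 genes, the deletion strain on cellobiose was the highest of the 6 groups for 17 genes, and a group without carbon was the highest for the other 183.

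The 80 genes that stayed more than 1 below the starved level had a larger median difference between media, though the ranges overlapped. Their median difference between no carbon and cellobiose in the wild type was 3.73, with a range from 2.42 to 8.69, while their median strain difference on cellobiose was 1.77, close to that of the genes at or above the starved level. Their median level was 76.0 TPM in the starved wild type, 2.30 TPM in the wild type on cellobiose and 11.5 TPM in the deletion strain on cellobiose. Part of this contrast follows from the arithmetic, since the wild type difference enters both the share and the grouping.

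RTO4_11829 was the extreme case. It held 371, 819.8 and 1576 TPM in the starved wild type, 1.00, 1.64 and 2.504 TPM in the wild type on cellobiose and 6.37, 6.56 and 4.91 TPM in the deletion strain on cellobiose. The strains did not overlap on cellobiose, yet the deletion libraries were all far below every starved library. RTO4_15070 had the same form, with 1478, 1284 and 538 TPM in the starved wild type, 1.66, 2.22 and 2.61 TPM in the wild type on cellobiose and 8.89, 10.2 and 13.7 TPM in the deletion strain on cellobiose. For such genes the deletion strain still held a low level on cellobiose.

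Within the deletion strain, cellobiose against no carbon gave a median difference of -0.75 on the log2 scale over the 200 genes (-0.21 over all tested genes), and 181 of 200 genes were lower on cellobiose. The 3 libraries on cellobiose were all below the 3 without carbon for 134 genes, and for 32.4% of all tested genes. The groups involved were partly used to choose the genes, so this is a description. The deletion strain on cellobiose was also below the starved wild type for 159 of 200 genes, by at most 1 on the log2 scale for 79 of these. The choice favoured high levels in both groups, so this too is a description. By group means, the label of genes silenced through Cbr1 thus describes a partial difference for most of the 200 genes.

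**Figure D3:**
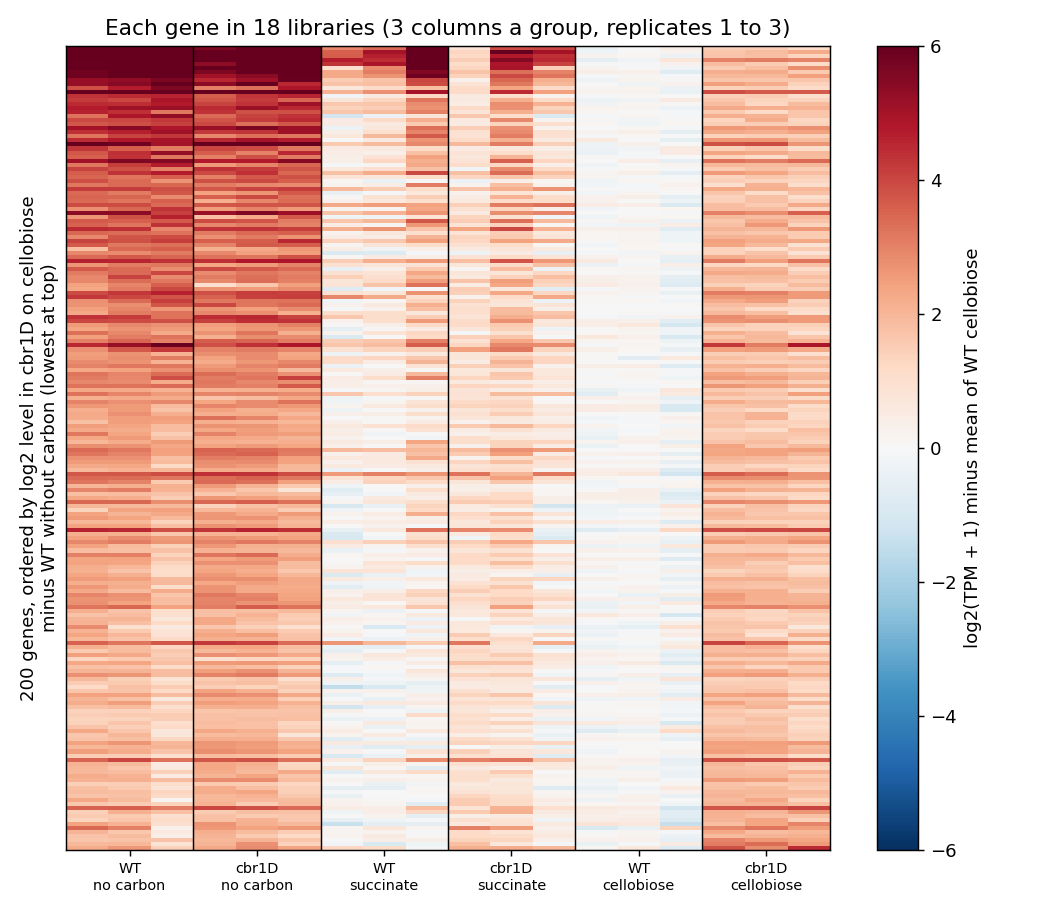
Level of each of the 200 genes (rows) in 18 libraries (columns, 3 a group), as log2(TPM + 1) minus the mean of the wild type (WT) on cellobiose, with genes ordered by the cbr1 deletion (cbr1D) on cellobiose minus the starved wild type. Values above 6 have the darkest colour. Genes at the top stay below the starved level in the deletion strain on cellobiose, genes at the bottom are about as high there as without carbon, and the succinate libraries differ among themselves.

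Without carbon the strains were similar over the group, within a limit that the choice set from above. The deletion strain minus the wild type had a median of 0.20, with a range from -1.55 to 0.496, and a median of 0.27 over all tested genes. After median-ratio scaling, which centres the typical gene, the medians were -0.09 and -0.02, so the positive sign over the 200 genes depended on the scaling. All 3 deletion libraries exceeded all 3 wild type libraries for 13 genes and were all below them for 3, against 3.14% and 5% of all tested genes.

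At the lower end, 8 genes were lower by at least 1 in the starved deletion strain. RTO4_11829 again had the lowest value, with 129.5, 229 and 644 TPM in the starved deletion strain, a log2 difference of -1.55 ± 0.81 (SE). RTO4_8852 followed, with 67.2, 97.2 and 155 TPM in wild type libraries and 25.02, 38.1 and 70.5 TPM in deletion libraries, a log2 difference of -1.28 ± 0.55 (SE). For both genes the strains overlapped, and replicate 3 was the highest library in each strain. Starved libraries with the same number departed from their group means alike in both strains for replicates 1 and 3 (r of deviations 0.606 and 0.686). For replicate 2 the r was 0.236, below the 0.354 of wild type replicate 2 with deletion replicate 1, so the pairing is only partial. Within same-numbered pairs the deletion strain was lower each time. Both genes were picked for the lowest values of this difference, which favours that sign, so this is a description. The paired log2 differences were -1.51, -1.84 and -1.29 for RTO4_11829. They were -1.39, -1.33 and -1.13 for RTO4_8852.

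The response to succinate in the deletion strain offered a comparison that the choice had touched least, since its succinate libraries were not used and its starved libraries only through the upper limit. With limma (Benjamini-Hochberg adjusted p under 0.05 over all tested genes and a log2 difference of at least 1), 180 of the 200 genes were lower on succinate than without carbon in the deletion strain, against 21.9% of all tested genes, and 0 were higher (6.79% of all tested genes). At an unadjusted p under 0.05, 191 were lower and 0 higher, against 34.1% and 10.4% of all tested genes. The median difference was -1.67 over the 200 genes and -0.39 over all tested genes. The 3 libraries on succinate were all below the 3 without carbon for 189 genes, and for 37.5% of all tested genes. The level in the starved wild type chose the genes, and the starved libraries of the strains deviated together, so a high starved level in the deletion strain was favoured by the choice. Low wild type levels on succinate were required too. There limma called a strain difference for 0.0126% (higher) and 0.0252% (lower) of all tested genes. Few calls do not show that the strains were alike, as all 3 deletion libraries exceeded all 3 wild type libraries for 30.1% of these genes. As far as the strains were alike there, a low succinate level in the deletion strain was also favoured. These counts are a description and no test of the group.

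Scaling changed the count but not the direction of this median. After median-ratio scaling 119 of 200 genes were called lower and 0 higher, against 12.4% and 10.6% of all tested genes, and the median difference was -1.32 (-0.01 over all tested genes). After quantile normalization 124 were called lower, against 11.8% of all tested genes. Without deletion replicate 3 on succinate, the library that stood with the wild type, 150 were called lower (17.4% of all tested genes), and without replicate 3 of both strains on succinate 154 (18% of all tested genes).

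Genes named for the succinate response of the deletion strain were picked by its size, so their p are descriptions. RTO4_12896 fell most on succinate in this strain. It held 725, 722 and 1033 TPM without carbon and 8.88, 124 and 9.86 TPM on succinate, and limma gave -5.10 ± 0.92 (log2 difference ± SE, adjusted p = 2.75e-04). All succinate libraries were below all starved ones, with replicate 2 well above the other succinate libraries. RTO4_15041, at rank 3 by score, held 1998, 2302 and 2167 TPM without carbon and 24.7, 258 and 63.3 TPM on succinate, and limma gave -4.84 ± 0.62 (log2 difference ± SE, adjusted p = 9.44e-06). In the wild type the same gene held 1611, 1571 and 1582 TPM without carbon, 48.6, 76.4 and 362 TPM on succinate and 12.3, 12.2 and 7.69 TPM on cellobiose, and the deletion strain held 171, 145 and 145 TPM on cellobiose. Its order of groups was thus the same as for the group as a whole on cellobiose, with the deletion strain between the wild type on cellobiose and the starved cells.

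The 20 genes that were not called had differences from -1.03 to -0.21. The smallest belonged to RTO4_12538, which held 17.3, 21.5 and 22.8 TPM without carbon and 18.5, 18.9 and 15.2 TPM on succinate in the deletion strain, and limma gave -0.21 ± 0.25 (log2 difference ± SE, adjusted p = 0.546). Its libraries overlapped, and in the wild type it was higher without carbon, at 22.4, 27.3 and 28.0 TPM, than on succinate, at 10.02, 11.7 and 8.82 TPM. RTO4_16594 was similar, with 27.9, 34.6 and 33.3 TPM without carbon and 29.2, 44.4 and 13.9 TPM on succinate in the deletion strain, and limma gave -0.26 ± 0.41 (log2 difference ± SE, adjusted p = 0.646). The sign of both differences turned positive after median-ratio scaling and after quantile normalization, and that of RTO4_16594 also without deletion replicate 3 on succinate (0.17) or with array weights (0.33).

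**Figure D4:**
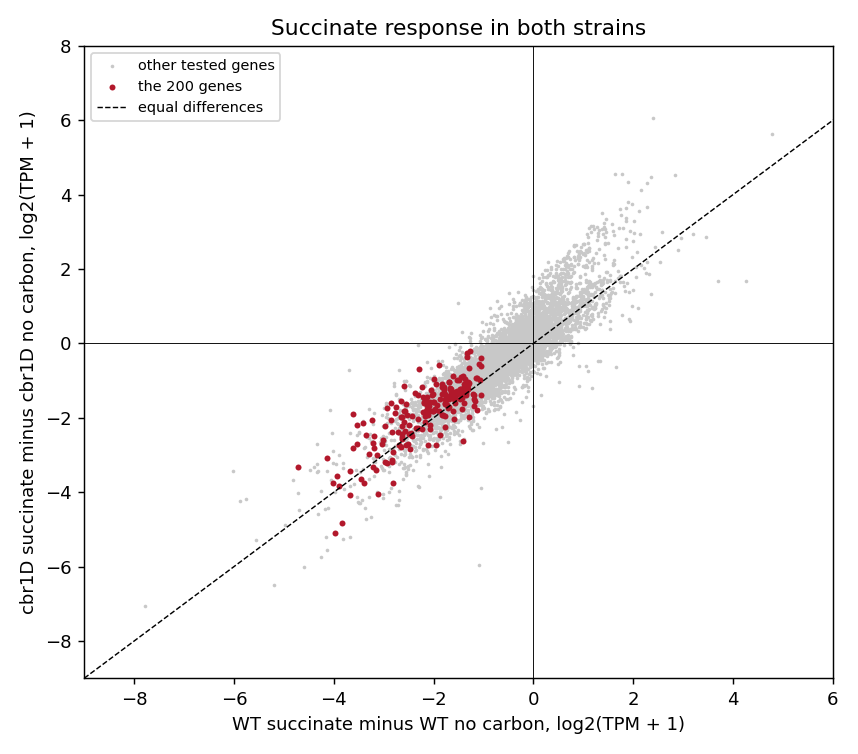
Succinate minus no carbon in the wild type (WT, x axis) against the same difference in the cbr1 deletion (cbr1D, y axis), in log2(TPM + 1), for 7938 genes. All of the 200 genes (red) are below -1 on the x axis by the choice made, and on the y axis, which the choice used least, all are below 0, from -5.10 to -0.21.

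The wild type difference between succinate and no carbon, which chose the genes, had a median of -2.02, against -1.67 in the deletion strain. For 151 of 200 genes the difference was the more positive one in the deletion strain, as it was for 71.1% of all tested genes. The interaction of strain with succinate against no carbon contains the wild type difference and the starved strain difference that chose the genes, so its counts are a description and no test of the group. Over all tested genes limma called 0% of genes, and thus 0 of the 200. At an unadjusted p under 0.05, 9 genes had a more positive difference in the deletion strain and 0 a more negative one, against 5.49% and 0.29% of all tested genes. With array weights, which lower the weight of libraries that depart from their group, limma called 81 genes more positive and 3 more negative, against 11.3% and 2.12% of all tested genes. Without replicate 3 of both strains on succinate it called 2 more positive and 0 more negative, against 0.567% and 0.139% of all tested genes. The choice favours a more negative difference in the wild type, and with it a more positive interaction.

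The wild type libraries on succinate were used in the choice, which favours low values there, so the counts for the strain difference on succinate are also given as a description. This difference was not called for any of the 200 genes by limma, against 0.0126% of all tested genes called higher and 0.0252% called lower in the deletion strain. At an unadjusted p under 0.05, 44 were higher and 2 lower (26.4% and 0.705% of all tested genes). The median difference was 0.43 over the 200 genes and 0.47 over all tested genes, and after median-ratio scaling it was -0.04 and 0.00, so the group did not stand above the typical gene. All 3 deletion libraries exceeded all 3 wild type libraries for 41 genes (20.5%), against 30.1% of all tested genes.

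The count of 0 called genes depended on the fit and on which succinate libraries were kept. Without deletion replicate 3, limma called 28 genes higher and 2 lower, shares of 14% and 1% against 13.1% and 0.655% of all tested genes, so the group did as the rest did. Without wild type replicate 3, it called 0 in either direction, against 0.0126% higher and 0.0504% lower of all tested genes. Without replicate 3 of both strains, 45 were called higher and 1 lower (22.5% and 0.5%, against 7.37% and 1.78% of all tested genes), and the median difference was 0.81, against 0.43 over all tested genes. Array weights called 90 higher and 1 lower (12.3% and 1.83% of all tested genes). With the replicate number as a block 9 were called higher and 1 lower, against 5.4% and 0.302% of all tested genes. The number of genes called for the strain difference on succinate thus ran from 0 to 91 over these fits. The cause of this range was not tested.

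Within the succinate groups, the departures followed the group as a whole. Wild type replicate 3 was the highest of its 3 libraries for 144 of 200 genes, and deletion replicate 3 was the lowest of its 3 for 127. The median SD between replicates on the log2 scale was 0.468 over the 200 genes in the wild type on succinate and 0.547 in the deletion strain, against 0.401 and 0.339 over all tested genes. On cellobiose it was 0.290 and 0.238, against 0.299 and 0.203. Without carbon it was 0.374 in the wild type and 0.285 in the deletion strain, against 0.522 and 0.289 over all tested genes. Over all tested genes the spread was thus largest in the wild type without carbon, a group used to choose the genes.

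The genes with the largest strain differences on succinate illustrate the spread. They were picked by this difference, and its wild type libraries were also used to choose the group. The p given for them here and below are therefore descriptions and no tests. RTO4_13546 held 5.72, 8.81 and 5.93 TPM in wild type libraries and 48.2, 33.1 and 6.29 TPM in deletion libraries on succinate, and limma gave 1.58 ± 0.69 (log2 difference ± SE, adjusted p = 0.164), and deletion replicate 3 was within the wild type range. Without that library the difference was 2.41 (limma, adjusted p = 0.0267), and with array weights 1.81 (adjusted p = 1.23e-07). RTO4_11284 held 1.68, 3.47 and 3.58 TPM in wild type libraries and 9.68, 11.6 and 9.33 TPM in deletion libraries, and limma gave 1.56 ± 0.48 (log2 difference ± SE, adjusted p = 0.151). For this gene all 3 deletion libraries were above all 3 wild type libraries. It was called by limma without deletion replicate 3 (adjusted p = 0.0497), with the replicate number as a block (adjusted p = 0.0333) and with array weights (adjusted p = 4.08e-07), at differences from 1.53 to 1.61.

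In the other direction, RTO4_10933 held 219, 323 and 2398 TPM in wild type libraries and 21.9, 312 and 179 TPM in deletion libraries on succinate, and limma gave -2.35 ± 0.81 (log2 difference ± SE, adjusted p = 0.151). The strains overlapped, and wild type replicate 3 was far above the others. The difference was -1.29 without that library, -1.22 without deletion replicate 1 and -0.21 with array weights. It was called without deletion replicate 3 (-2.71, limma, adjusted p = 0.0481) and with the replicate block (adjusted p = 0.0331). RTO4_14376 held 26.7, 54.2 and 298 TPM in wild type libraries and 4.03, 59.5 and 45.5 TPM in deletion libraries, and limma gave -1.67 ± 0.76 (log2 difference ± SE, adjusted p = 0.171), and the strains overlapped too. The difference was -0.69 without wild type replicate 3, -0.54 without deletion replicate 1 and 0.021 with array weights. Both genes were among those with a steep difference between media, at 1870 ± 1503 and 618 ± 381 TPM (SD, n = 3) in the starved wild type and 9.86 ± 1.65 and 1.23 ± 0.456 TPM in the wild type on cellobiose.

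**Figure D5:**
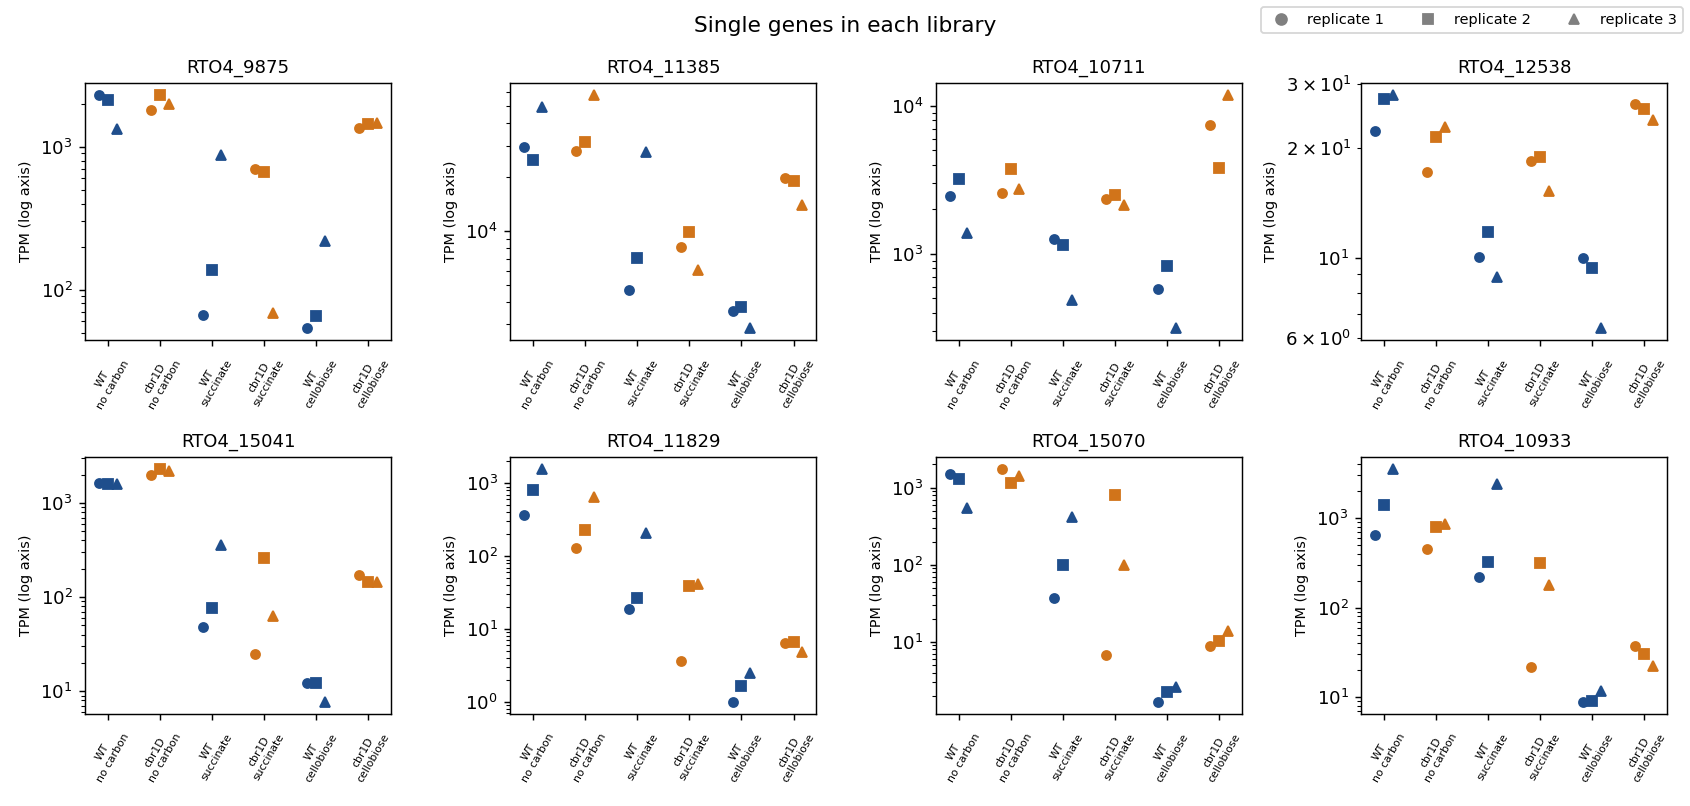
TPM of 8 of the 200 genes in each library on log axes, by strain and medium (WT, wild type; cbr1D, cbr1 deletion), with the symbol giving the replicate. In the top row the deletion strain on cellobiose is near the starved level or above it, except RTO4_11385, which is below, and in the bottom row it stays well below the starved level although above the wild type on cellobiose.

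Cellobiose and succinate did not lower the genes alike. In the wild type, cellobiose was the group with the lowest level for 163 of 200 genes and succinate for 37, and cellobiose minus succinate had a median of -0.49, against 0.43 over all tested genes. In the deletion strain the order was the opposite. Cellobiose minus succinate had a median of 0.94 (0.17 over all tested genes), and the level was higher on cellobiose for 180 of 200 genes. The direction of both medians was the same after median-ratio scaling, at -0.91 and 0.77, and after quantile normalization, at -0.61 and 0.73. Since the choice favoured a low wild type level and a high deletion level on cellobiose, this exchange of order is a description and was not tested.

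The 567 genes that met the same terms for the wild type and for the starved deletion strain, but whose strain difference on cellobiose was under 1, are a group for comparison. Genes that met every term but ranked below 200 are in neither group. In the wild type, no carbon minus cellobiose had a median of 1.83 over the 567 genes and 2.52 over the 200, and no carbon minus succinate 1.70 and 2.02. The score favoured a large difference from cellobiose, so part of the contrast on cellobiose follows from the choice. The 567 genes had a similar level without carbon, with a median within a library of 49.1 ± 4.37 TPM (SD, n = 3) in the starved wild type against 49.3 ± 4.50 TPM for the 200 genes. On cellobiose their medians were 11.2 ± 0.295 TPM for wild type libraries and 13.6 ± 0.838 TPM for deletion libraries, against 4.30 ± 0.364 and 22.3 ± 2.25 TPM for the 200 genes. On succinate in the deletion strain, which the choice did not use, they stood at 14.9 ± 3.19 TPM, against 12.4 ± 5.18 TPM for the 200 genes, and these ranges overlapped.

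In the deletion strain, succinate minus no carbon had a median of -1.37 over the 567 genes, of which 414 (73.0%) were called lower by limma, against -1.67 and 180 (90%) of the 200 genes. The strain difference on succinate had a median of 0.15 over the 567 genes and 0.43 over the 200 genes, and 0 genes of either group were called. Without carbon the strain difference had medians of -0.18 and 0.20, so the sets differed in the same direction there. The interaction of strain with succinate against no carbon had medians of 0.34 over the 567 genes and 0.26 over the 200 genes. No test of the difference between these groups was made, as both were chosen on values of the same libraries.

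The membership of the group depended on single libraries. The choice repeated without wild type replicate 3 without carbon kept 62 of the 200 genes, because 1019 genes then met the terms and filled the first 200 places, while 194 of the 200 still met every term. Repeated without each other library whose group mean entered the choice, it kept between 146 and 196. After median-ratio scaling 149 of the 200 still met every term and 111 were kept, and after quantile normalization 96 met every term. At the full set of libraries, 479 genes failed only the upper limit on the strain difference without carbon, and 567 only the strain difference on cellobiose.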

How the data were processed

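The authors deposited 1 table of TPM with a column for each of 18 libraries, and each column summed to 1e+06. Salmon 1.10.0 is named in the submitters' processing notes. The build and annotation used by the authors were not stated in the labels or the file header. Read numbers cannot be had from TPM, so sequencing depth is unknown and no counting interval is given. Each column was assigned to its sample through the library name in the labels.

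Values were taken as log2(TPM + 1), which understates changes of low genes. Genes with a mean under 1 TPM (546) were left out, and 7938 were tested. limma 3.58.1 in R 4.3.3, with 1 mean for each of 6 groups, 1 residual spread per gene over all 18 libraries and a mean-dependent prior, gave the log2 differences, their SE and Benjamini-Hochberg adjusted p over all tested genes. A gene was called at an adjusted p under 0.05 and a log2 difference of at least 1. The fit was tested on simulated data with independent noise and the same spread in every library. That simulation does not cover libraries that stand apart or deviations shared between libraries. With 3 libraries against 3, an exact permutation test of a gene cannot give a p under 0.1. Differences that chose the genes are given without a test. Counts for the strain difference on succinate, for the interaction and for the succinate response of the deletion strain share libraries with the choice. They are given as descriptions, as are the p of genes named for their extreme differences.

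The members and the comparisons were chosen with earlier results of these data known. Genes named were those at the extremes of the score, of abundance in the starved wild type and of each difference, at most 2 higher and 2 lower for each, except RTO4_13588. Carbon metabolism gene lists needed names and were not run. Between strains, starved libraries with the same number had r of deviations from their group means of 0.606, 0.236 and 0.686 across 7938 genes. Wild type replicate 2 had a higher r with deletion replicate 1 (0.354), so this counts as pairing only in part. On succinate there was none (0.08, -0.34 and -0.32). Starved against succinate libraries gave 0.246, -0.04 and 0.292 in the deletion strain and 0.313, 0.149 and 0.24 in the wild type. This counts as pairing in the wild type and, for replicates 1 and 3, in part in the deletion strain. Alternatives were other pseudocounts, no filter, other scalings, array weights, a fit of only the groups compared, the replicate number as a block, and leaving out each library. Leaving out replicate 3 of both strains on succinate was chosen after seeing the data.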

Additional observations from a re-analysis of the deposited data

How the results depend on the processing

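The count of genes lower on succinate in the deletion strain (180) stayed within 1.5 times under every alternative run except median-ratio scaling (119), and ran from 150 to 183 when single libraries were left out. A replicate block in the full fit gave 181, and in a fit of the groups compared 179. For the strain difference on succinate (0 called), array weights called 91, the replicate block in the full fit 10 (9 higher, or 4.5%, against 5.4% of all tested genes), the block within the groups compared 0, leaving out single libraries 0 to 30, and leaving out replicate 3 of both strains 46. For the interaction (0 called), array weights called 84, leaving out replicate 3 of both strains 2, the replicate block 0 and leaving out single libraries 0. Same-numbered libraries departed alike in part between strains without carbon, and between no carbon and succinate in the wild type. In the deletion strain they did so between these media for replicates 1 and 3. They did not do so between strains on succinate. The block is therefore no pairing for the strain difference on succinate. It is a pairing only in part for the succinate response of the deletion strain and for the interaction.

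The median difference between no carbon and cellobiose (2.52) was 2.97 and 1.94 with pseudocounts of 0.1 and 5 TPM, 2.01 after quantile normalization and 2.43 to 2.69 without single libraries. That between no carbon and succinate (2.02) was 1.46 after median-ratio scaling and 1.36 after quantile normalization. The strain difference on cellobiose (1.76) was 2.12 and 1.32 with those pseudocounts, 1.56 after median-ratio scaling and 1.33 after quantile normalization. The strain difference without carbon (0.20) was -0.092 and 0.0085 under these scalings and 0.0045 to 0.263 without single libraries. That on succinate (0.43) was -0.037 after median-ratio scaling, 0.015 after quantile normalization and 0.249 to 0.651 without single libraries. The cause of these shifts was not tested.

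Of the 200 genes, the same choice kept 131 with a pseudocount of 5 TPM, 111 after median-ratio scaling and 96 after quantile normalization. Without single libraries whose group mean entered the choice, it kept 62 to 196. Among single genes, RTO4_14376 on succinate changed sign with array weights (0.021). The succinate response of RTO4_12538 in the deletion strain was 0.16 and 0.18 after median-ratio scaling and quantile normalization. That of RTO4_16594 was 0.12 and 0.10 under these, 0.33 with array weights, 0.17 without replicate 3 of both strains on succinate, and -0.63 to 0.17 without single libraries.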

Other observations

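The numbers in the identifiers of the 200 genes were sometimes consecutive. For 20 of the 200 genes (10%) the number was next to that of another of the 200, and for 349 of the 7738 other tested genes (4.51%) it was next to that of one of the 200. No coordinates of strain IFO0880 were used here, so whether consecutive numbers mark neighbouring genes was not tested.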
